A study of Mus musculus with 5 samples.

Results

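mmu-miR-103-3p and mmu-miR-107-3p, called miR-103-3p and miR-107-3p here, are sister miRNAs whose target sites were followed through liver development in tables of Argonaute (Ago) HITS-CLIP, in which RNA crosslinked to Ago by UV light is immunoprecipitated and sequenced. The sites were all entries that name either miRNA, with entries at the same position counted once. They covered 11253 positions of 1645693 positions listed for all miRNAs. Livers of C57BL/6 mice, by the study's methods of the substrain C57BL/6J, were taken at e12.5, e15.5 and e18.5 of embryonic life, at P7 after birth and from adults, and each stage has 1 table, referred to as its library. No treatment or genetic change separated the groups, and all livers were crosslinked with 3 exposures to UV light of 254 nm. Where 5 values stand in a row, they follow the order of the stages from e12.5 to Adult. An Ago2 immunoprecipitation was made at every stage, and an Ago1 antibody was also added at P7 and Adult, so that this antibody and the time after birth cannot be told apart. The embryonic tables each hold 2 lists of interactions one after the other, and no source used here ties them to the 2 biological replicates that the study names. The study's supplement names a second replicate at e18.5 alone. With 1 library per stage there is no spread between animals, and every interval below covers counting error only.

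Mature miRNAs guide Ago to mRNAs by pairing of bases 2 to 8, the seed, mostly with sites in the 3′UTR, and the bound mRNA is translated less or degraded. In mammals the genes of this family lie in introns of the pantothenate kinase genes, which encode the enzymes that start coenzyme A synthesis. The family is known for its part in insulin sensitivity, where caveolin-1 is a reported target, and for targeting Dicer1, the enzyme that makes mature miRNAs.

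The mature sequences show why the pair is treated as one family, and why its sites run into those of others. They are printed from RefSeq (GRCm38.p6) with the seed in capitals. The last 3 lines are miRNAs whose seeds hold the same GCAGC or CAGCA letters in another register.
miR-103-3p: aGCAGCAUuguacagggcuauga
miR-107-3p: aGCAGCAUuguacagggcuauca
miR-16-5p: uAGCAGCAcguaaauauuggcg
miR-503-5p: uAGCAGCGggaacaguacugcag
miR-214-3p: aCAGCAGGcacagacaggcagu
The sisters were identical at 22 of 23 bases, with the substitution G22C from miR-103-3p to miR-107-3p, counted from the 5′ end. A read that ends before base 22 cannot be told apart between them. miR-103-3p is encoded by Mir103-2 (chr2:131288103-131288125, plus strand) and Mir103-1 (chr11:35782447-35782469, plus strand), and miR-107-3p by Mir107 (chr19:34820700-34820722, minus strand). A full site reads ATGCTGCA on the mRNA and is called an 8mer. A 7mer-m8 lacks the last A, a 7mer-A1 lacks the first A, and a 6mer is TGCTGC alone.

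miR-107-3p rose against miR-103-3p across the 5 libraries. The tables attach a number to each miRNA, taken here as its read count, with the higher gene copy used for miR-103-3p. For miR-103-3p it was 19830, 10326, 7257, 11530 and 12515 from e12.5 to Adult. The corresponding numbers of miR-107-3p were 1777, 1205, 1328, 2933 and 6626. Neither miRNA was among the leading ones, since miR-103-3p ranked between 69 and 94 of 585 to 745 listed miRNAs and miR-107-3p moved from rank 232 at e12.5 to rank 89 in Adult. In reads per 1000000 miRNA reads (RPM), miR-103-3p stood at 776 (95% Wilson interval 766 to 787), 1022 (1003 to 1042), 933 (911 to 954), 957 (940 to 975) and 546 (537 to 556). The level of miR-107-3p was 69.6 (66.4 to 72.9), 119 (113 to 126), 171 (162 to 180.1), 243 (235 to 252) and 289 (282 to 296) RPM. Adult liver therefore held the lowest level of miR-103-3p and the highest of miR-107-3p, also against each embryonic list taken alone. The clusters at the miR-103 genes, scaled to cluster reads and not to miRNA reads, did not fall from e12.5 to Adult. Per 1000000 cluster reads, Mir103-1 had 212, 294, 269, 320 and 229 and Mir103-2 had 225, 319, 279, 340 and 238. Adult was thus above e12.5 but below e15.5, e18.5 and P7 at both. The difference from e12.5 to Adult was 0.704-fold for miR-103-3p and 4.16-fold for miR-107-3p. Much of the e12.5 total came from miR-142a-3p and miR-144-3p, miRNAs of blood cells, which made up 53.9% of its miRNA reads and 5.87% in Adult. Without these reads, the changes were 0.345-fold and 2.04-fold. Reads that fill the Adult total were left in, such as those of miR-16-5p (34870 RPM at e12.5 and 140413 in Adult). The size of the change thus depends on which reads are dropped. In whole liver, fewer cells of a type and less RNA per cell cannot be told apart.

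The ratio of the sisters does not depend on that total. It was 11.2, 8.57, 5.46, 3.93 and 1.89 from e12.5 to Adult. It rests on the higher gene copy of miR-103-3p, and with both copies summed it was 21.99, 16.8, 10.8, 7.76 and 3.75, in the same order. Within the embryonic tables, in stage order, the first list gave 14.4, 19.9 and 5.08 and the second gave 10.6, 7.53 and 7.42. The lists of different embryonic stages overlapped in this measure, so no order among the embryonic stages is given, while P7 and Adult lay below every embryonic list. miR-107-3p made up 8.22% (7.87 to 8.60) of the reads of the pair at e12.5 and 34.6% (33.9 to 35.3) in Adult, or 4.35% and 21.1% with the copies summed.

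**Figure D1:**
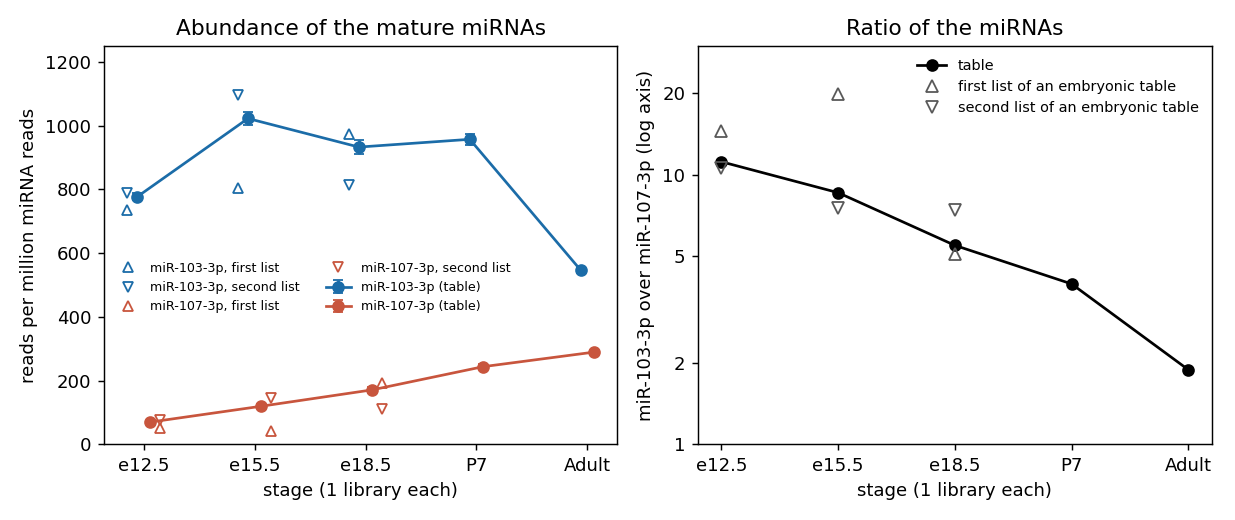
Reads of miR-103-3p and miR-107-3p in RPM (left) and their ratio on a log axis (right) in the 5 libraries, with 95% Wilson intervals on the left and open triangles for the lists of each embryonic table. miR-107-3p climbs from 69.6 to 289 RPM while the ratio falls from 11.2 to 1.89.

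The 5 miRNAs with the most similar course to the summed level of the pair were miR-342-3p (Pearson r = 0.98), miR-532-5p (0.97), miR-429-3p (0.92), let-7e-5p (0.87) and miR-30c-5p (0.87), out of 126 miRNAs with at least 1000 reads in every library. These are descriptions over 5 libraries that share their totals. The summed level of the pair was 846, 1142, 1103, 1200.4 and 835 RPM, and that of miR-342-3p 287, 502, 537, 624 and 220.1 RPM. On this scale the levels at e12.5 and in Adult were below the 3 between them for both. Without miR-142a-3p and miR-144-3p the pair had 1834, 2167, 1659, 1346 and 887 RPM, so that e12.5 was then above e18.5 and P7.

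Most sites were short, and most of these lay on sites of the miR-15/16 family. The libraries listed 5198, 2366, 2291, 4144 and 2893 sites, and between 18 and 41 sites per library were listed for only 1 of the sisters. 6mers made up 65.3% (64.0 to 66.6), 67.1%, 64.9%, 65.4% and 68.3% (66.6 to 70.0) of the sites from e12.5 to Adult. Over all seed families the same share was lower in every library, between 53.3% and 54.2%. 8mers were 4.21% to 5.54% of the sites, against 7.22% to 7.67% over all families. The base after the 6mer was T at 52.0% of the sites at e12.5 and at 53.1% to 59.1% in the other libraries. A T there completes TGCTGCT, which is a match to the seed of miR-15/16.

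Of the 11253 positions, 5840 (51.9%) overlapped a listed site of the miR-15/16 family by at least 5 bases. The share was 61.6% of 6mers, 64.8% of 7mer-m8 sites and 12.6% of 7mer-A1 sites. None of the 501 8mers did so, which follows from their letters. miR-503-5p sites overlapped 48.4% of the positions and miR-214-3p sites 37.5%, and 2360 positions overlapped no other listed site. miR-16-5p alone had 44.9, 31.1, 99.7, 36.6 and 257 times the reads of miR-103-3p. Clusters of reads, the unit in which Ago binding was scored, held sites of a median of 5 to 7 seed families where they held a miR-103/miR-107 site, against 2 to 4 over all clusters. A cluster with no other family was rare, at 0.99% to 3.15% of the clusters with a miR-103/miR-107 site, while 14.0% to 27.7% of all clusters held 1 family. The tables list matches, so which miRNA brought Ago to a cluster with sites of other families cannot be told apart. That includes positions that overlap no other listed site, wherever another family matches elsewhere in the cluster.

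**Figure D2:**
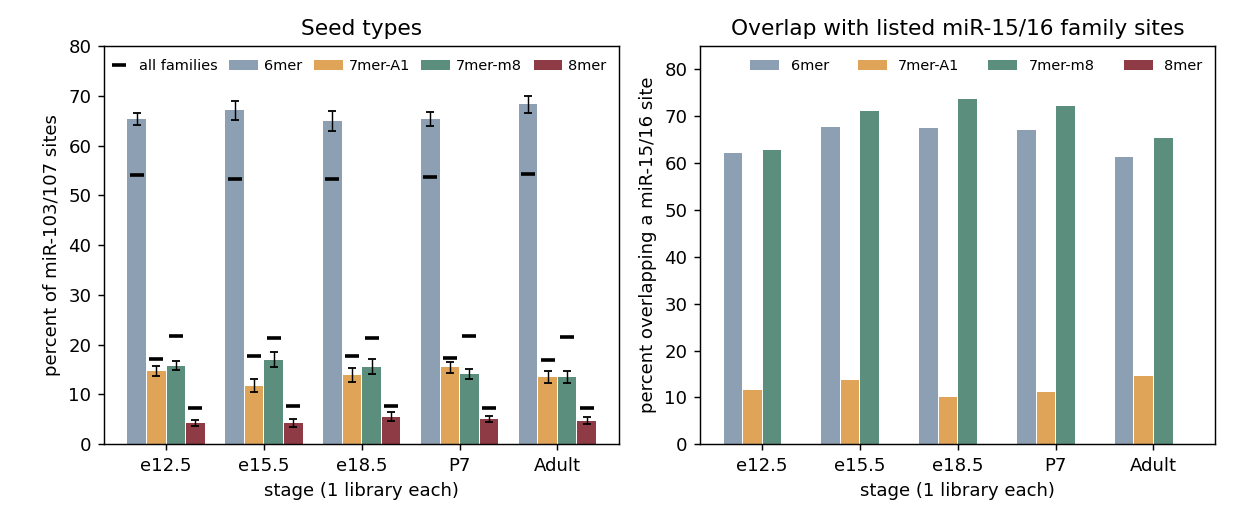
Left, percent of miR-103/miR-107 sites of each seed type in each library with 95% Wilson intervals, and the percent over all seed families as black dashes. Right, percent of each type that overlaps a listed miR-15/16 family site. 6mers lead in every library, and 8mers have no overlap.

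The median conservation of the 3′UTR sites was above that of 3′UTR sites over all families in each library, with no test made. Sites also listed under another region, such as a CDS, are included on both sides. At e12.5, 650 of the 1054 clusters with a site were listed under 3′UTR alone, beside 25998 of 39452 over all clusters. The part of coding sequence in these medians was not tested. The conservation score of the tables runs from 0 to 1. Its median over miR-103/miR-107 sites in 3′UTRs was 0.689, 0.731, 0.68, 0.629 and 0.597, against 0.303, 0.537, 0.361, 0.189 and 0.275 over all families. 8mers had medians of 0.997, 0.9995, 0.961, 0.803 and 0.64 in the same order, over 22 to 45 sites. 7mer-m8 sites had medians of 0.9, 0.86, 0.843, 0.713 and 0.808. 7mer-A1 sites, which seldom overlap miR-15/16 sites, had medians of 0.431, 0.442, 0.325, 0.605 and 0.465, the lowest of the types except at P7, where 6mers were lowest (0.578). 7mer-A1 sites over all families had medians of 0.42, 0.638, 0.518, 0.276 and 0.36, so that for this type the sites of the pair were the less conserved at e15.5 and e18.5. In coding sequences the medians were 0.967 to 0.990 against 0.940 to 0.984 over all families. The highest read number of a cluster, called its reads here and summed over the lists of an embryonic table, had no order of the types that all libraries shared. In 3′UTRs its median at e18.5 was 42.5 for 7mer-m8 sites and 8.5 for 8mers, while in Adult it was 28.5 and 26.5.

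The share of Ago clusters with a miR-103/miR-107 site was higher in Adult than at e12.5, in 3′UTRs and in coding sequences (CDS). In 3′UTRs, such a site was held by 1054 of 39452 clusters (2.67%, 2.52 to 2.84), 530 of 18219 (2.91%), 510 of 16150 (3.16%), 964 of 29603 (3.26%) and 516 of 15914 (3.24%, 2.98 to 3.53). In the order of the embryonic stages, the first lists gave 2.41%, 2.66% and 2.81% (2.497 to 3.17) and the second lists 2.80%, 2.97% and 3.61% (3.25 to 4.02), so that the second list of e18.5 lay above Adult and apart from the first. In CDSs, the counts were 2261 of 58352 (3.87%, 3.72 to 4.03), 1115 of 28293 (3.94%), 1173 of 26914 (4.36%), 2168 of 52455 (4.13%) and 1746 of 39007 (4.48%, 4.28 to 4.69). The share was 3.44% to 4.44% in 5′UTRs, 1.97% to 2.98% in introns and 1.42% to 2.07% between genes, so that it was lowest between genes in every library. A two-sided Fisher's exact test compared e12.5 with Adult for every seed family with at least 50 clusters in each library, with Benjamini-Hochberg adjustment. By this exact test the log2 odds ratio of Adult over e12.5 was 0.29 (SE 0.079, adjusted p = 0.00129) in 3′UTRs and 0.22 (SE 0.047, adjusted p = 1.77e-05) in CDSs. Such a call was common, since 64 of 304 families (21.1%) were higher and 64 (21.1%) lower in Adult in 3′UTRs, and 110 of 375 (29.3%) were higher and 83 (22.1%) lower in CDSs. 69 families in 3′UTRs and 118 in CDSs had a larger ratio. For the miR-15/16 family the ratio was 0.15 in 3′UTRs (adjusted p = 0.0859 by the same exact test) and 0.18 in CDSs (adjusted p = 0.000193), and the difference between the families was not tested. The test compares these libraries, not the stages, and families that share letters are not independent.

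Neither call held for sites of at least 7 bases, at adjusted p = 0.241 in 3′UTRs and 0.759 in CDSs by the same Fisher's exact test. The direction turned when genes were counted in place of clusters. A 3′UTR site was then found in 934 of 8411 genes with any listed 3′UTR site at e12.5 (11.1%) and in 485 of 5752 in Adult (8.43%, log2 odds ratio −0.44, adjusted p = 3.34e-07 by the exact test), while e12.5 had 4.69 and Adult 2.77 3′UTR clusters per gene.

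**Figure D3:**
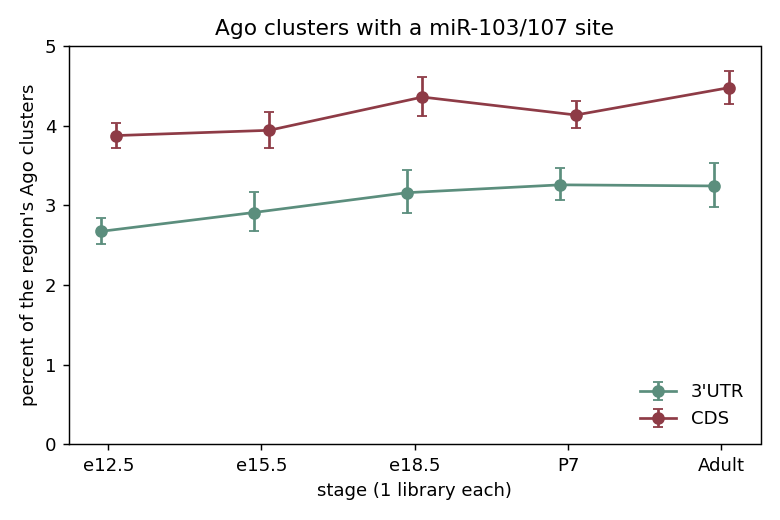
Percent of Ago clusters in 3′UTRs and in CDSs that hold a miR-103/miR-107 site in each library, with 95% Wilson intervals. The share runs from 2.67% to 3.24% in 3′UTRs and from 3.87% to 4.48% in CDSs between e12.5 and Adult.

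In all, 1813 genes had a 3′UTR site in at least 1 library, 812 in at least 2 and 62 in all 5. With at least 7 matched bases these were 716, 259 and 19 genes. In 339 genes the 3′UTR held at least 2 sites, and the most were 5 sites, in Dot1l, a histone methyltransferase, Rbm38 and Znrf2, a ubiquitin ligase. Of 96 positions with an 8mer in 3′UTRs, 34 (35.4%) were listed in at least 2 libraries, within the range of the other seed types of the pair (30.03% to 37.3%) and beside 23.7% of the 8mers over all families. At a single position, 18 such 3′UTR sites were listed in all 5 libraries, of which 11 were 7mer-m8, 5 were 7mer-A1 and 2 were 8mers. 11 of the 18 had a conservation score of at least 0.9, and 8 overlapped a miR-15/16 site. 7 sites are printed here on the strand of the mRNA, with the matched bases in capitals, as examples that include both 8mers and sites with and without a miR-15/16 match. The first 5 have no miR-15/16 match at this position and the last 2 do.
Gpr146 8mer: aaaaggccaaccttggtcttATGCTGCAtg
Sdcbp 8mer: ttcccggagccagggagaatATGCTGCAtg
Pfn1 7mer-A1: gttctgtgatccgggactcacTGCTGCAag
Crebrf 7mer-m8: gtctgtgcccacatgagagcATGCTGCcgg
Btg2 7mer-m8: cctggcactctactgttctcATGCTGCcct
Alas1 7mer-m8: tgatgggtcacaggttgccgATGCTGCtaa
Zbtb39 7mer-m8: ttagtttactgataggttttATGCTGCtaa
The matched bases lie in GRCm38 at chr5:139393621-139393627 in Gpr146 and chr4:6394661-6394667 in Sdcbp, both on the plus strand. The last A of an 8mer lies outside these intervals. The same holds for each 7mer-A1 interval given in the text, which takes in the base before the match instead. The 7mer of Zbtb39 lies at chr10:127744010-127744016 (plus strand), and the others are given with their reads.

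Pfn1, which encodes the actin-binding protein profilin, had the most reads among the 3′UTR sites (chr11:70652874-70652880, minus strand). They were 3310, 1701, 3248, 3047 and 172. Adult stood far below the other 4, and its cluster held matches to 14 to 35 seed families across the libraries. The tables list this site under 3′UTR and CDS, and in the longest coding transcript it lies at base 233 of a CDS of 420 bases. Crebrf, a regulator of the stress-responsive factor CREB3, had 788, 48, 355, 419 and 163 reads at a fully conserved site (score 1; chr17:26774479-26774485, plus strand) whose cluster held only 3 to 4 seed families. The e15.5 library was lowest there.

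Btg2 encodes an antiproliferative protein that recruits the deadenylase complex. Its site at chr1:134077326-134077332 (minus strand) had 155, 223, 160, 189 and 72 reads from e12.5 to Adult. A further 7mer-m8 lay in the same 3′UTR at chr1:134076491-134076497, with a miR-15/16 match. It had 2.38, 3.57 and 6.995 reads per 1000000 cluster reads at the embryonic stages and was not listed at P7 or in Adult. On that scale the first site of Btg2 had 3.45, 13.5, 12.3, 11.5 and 2.89. Alas1, the rate-limiting enzyme of heme synthesis, had 40, 195, 149, 188 and 39 reads (chr9:106235537-106235543, minus strand), with e12.5 and Adult below the others. This site is also listed as coding, at base 1614 of a CDS of 1926 bases.

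The 8mer of Gpr146, a G protein-coupled receptor, had 175, 199, 16, 110 and 28 reads at a weakly conserved site (score 0.06). The 8mer of Sdcbp, the adaptor protein syntenin, had 31, 152, 12, 32 and 24 reads and was fully conserved (score 1). For both, e15.5 was highest, also per 1000000 cluster reads. The lowest reads were those of e18.5, but on that scale Gpr146 was lowest in Adult (1.13) and Sdcbp at e12.5 (0.691).

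Other members with a site in all libraries were Psme3, a proteasome activator (256, 338, 172, 43 and 13 reads), Larp4b, an RNA-binding protein (90, 94, 180, 65 and 36), and Hint1, a nucleotide hydrolase (657, 59, 106, 40 and 22, also listed as coding). Adult was lowest in each of these. Rnf125, a ubiquitin ligase, was the exception among the 18 sites, with 57, 40, 76, 70 and 293 reads and its highest value in Adult. Ipmk, an inositol phosphate kinase, had 85 to 105 reads outside e18.5, where it had 16. Aqp11, an aquaporin of the endoplasmic reticulum, had 90, 16, 211, 55 and 124, Tram1, part of the translocation machinery, 351, 69, 5, 31 and 56, Zbtb39, a zinc finger protein, 151, 25, 269, 84 and 39, 1110004F10Rik 32, 31, 69, 34 and 14, and Lbh 6, 55, 24, 87 and 17. None of these 5 moved in one direction across the stages.

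Among the 18 sites, 15 had fewer reads in Adult than at e12.5, and 12 did so per 1000000 of the summed cluster reads, which were 44867326 at e12.5, over both lists, and 24885228 in Adult. Of 1237 3′UTR sites of all seed families under the same rule, 74.5% had fewer reads in Adult and 59.3% did so per 1000000, so that a fall was the common case. By reads, Adult was the lowest library at 7 sites. The level of the mRNA was not measured in these tables, so its part in these reads was not tested.

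Some 3′UTR sites of at least 7 bases were listed only before or only after birth. The lowest read number in any table was 5, so a site that is not listed may still have had a few reads. Of the 716 genes, 22 (3.07%) were listed at P7 and Adult and in no embryonic library, beside 2.28% of the 174008 pairs of a gene and a seed family over all families. Those with the most reads included Idh3a, a subunit of mitochondrial isocitrate dehydrogenase (94 at P7 and 193 in Adult), Ctbp1, a transcriptional corepressor (120 and 59), B4galt7, a galactosyltransferase of proteoglycan assembly (125 and 30), and Mrps6, a mitochondrial ribosomal protein (23 and 28). Their conservation scores were 0.004, 0.001, 0.011 and 0.099. Each read number is from 1 library, and the added Ago1 antibody and the stage cannot be told apart.

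In every embryonic library and neither at P7 nor in Adult were 11 genes (1.54%), beside 1.15% over all families. 10 of them had a single position in all 3 libraries. The leading 5 were Taf8, a subunit of the general transcription factor TFIID (135, 123 and 58 reads in stage order), Rbm38, an RNA-binding protein (362, 58 and 33), Pcid2, a factor of mRNA export (94, 88 and 14), Hspbap1 (52, 9 and 111) and Tle4, a corepressor of Wnt and Notch target genes (131, 38 and 9). Tle4 and Hspbap1 carried 8mers, and that of Tle4 was fully conserved (score 1). From the embryonic genes the carriers of 8mers are shown, and from the postnatal ones Idh3a and Ctbp1, with the matched bases in capitals.
Tle4 8mer: ttcatactagaaatggatggATGCTGCAag
Hspbap1 8mer: tgtatattttgattacattcATGCTGCAct
Idh3a 7mer-A1: tagcactcctgctggtggattTGCTGCAgt
Ctbp1 7mer-A1: gccttggcacctggtggagggTGCTGCAcg
The sites lie at chr19:14448385-14448391 (minus strand) in Tle4, chr16:35825537-35825543 (plus strand) in Hspbap1, chr9:54603383-54603389 (plus strand) in Idh3a and chr5:33248455-33248461 (minus strand) in Ctbp1.

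**Figure D4:**
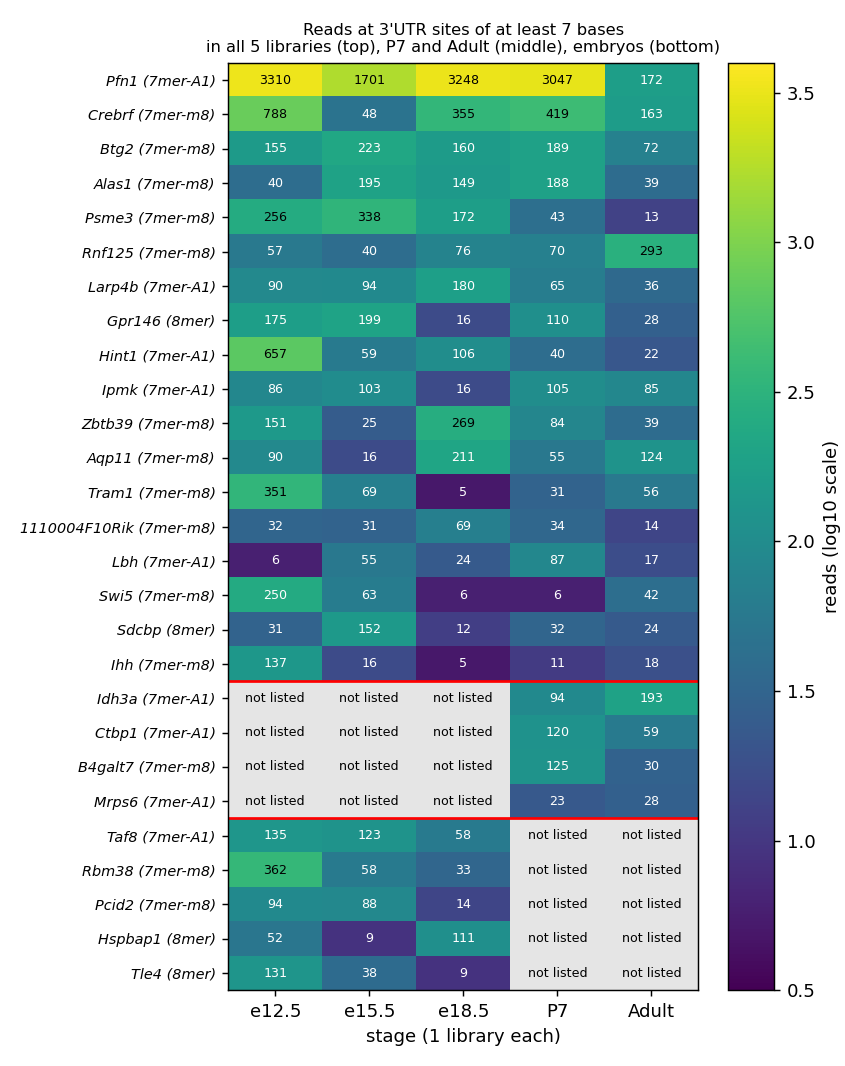
Reads of single 3′UTR sites of at least 7 bases (rows, with the seed type) in the 5 libraries (columns). The upper block holds the 18 sites listed in all libraries, the middle block 4 leading genes of P7 and Adult, and the lower block the 5 leading genes of the embryos. Pfn1 has the most reads in every library but Adult, where Rnf125 with 293 and Idh3a with 193 stand above it.

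Coding sequences held more miR-103/miR-107 sites than 3′UTRs at every stage. CDS clusters were 43.7%, 47.3%, 51.3%, 52.3% and 60.4% of the clusters with a site, beside 28.0%, 34.9%, 35.0%, 42.0% and 48.0% of all clusters. 3660 genes had a CDS site in at least 1 library and 184 in all 5. With at least 7 bases, 40 positions were listed in all libraries, of which 25 overlapped a miR-15/16 site.

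The coding site with the most reads was the 8mer of the alpha-globin genes, with 45615, 17732, 13774, 6575 and 520 reads. Per 1000000 cluster reads these were 1017, 1073, 1059, 399 and 20.9, alike in the embryonic libraries and lower at P7 and in Adult. Hba-a1 and Hba-a2 are near-identical copies that hold the same 30 bases and the same reads, so they cannot be told apart. The cluster held 19 to 38 seed families. Tcp1, a subunit of the chaperonin that folds actin and tubulin, also had fewer reads in each later library (6340, 2241, 718, 385 and 169) at a fully conserved site. Pnp and Pnp2, copies of purine nucleoside phosphorylase, shared 370, 268, 493, 247 and 141 reads, and Nelfa, a subunit of the negative elongation factor, had 670, 213, 375, 210.0 and 98. Adult was lowest in all of these. Alb, serum albumin, ran the other way with 276, 156, 160, 471 and 903 reads, highest in Adult.
Hba-a1 8mer: ggtcgccgatgctctggccaATGCTGCAgg
Tcp1 7mer-m8: tggaagagactgtctgatcaATGCTGCtaa
Alb 7mer-A1: caatcctgaaccgtgtgtgtcTGCTGCAtg
These sequences show a globin and an albumin site without a miR-15/16 match and a Tcp1 site with one. They lie at chr11:32284034-32284040, chr17:12919886-12919892 and chr5:90472488-90472494, all on the plus strand. alpha-globin and albumin mRNAs are among the most abundant of erythroid cells and hepatocytes, and the part of mRNA abundance in these reads was not tested.

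Sites in CDSs lay near the start codon more often than clusters did in general. Of the sites placed in the longest coding transcript, 11.6% (10.3 to 13.01), 14.3% (12.3 to 16.5), 15.6% (13.6 to 17.8), 14.1% (12.7 to 15.7) and 16.4% (14.8 to 18.3) were in the first 90 nt, in stage order. For CDS clusters of any miRNA the share was 5.47% to 6.81%. TGCTGC itself was common there, since 9.83% to 10.9% of its occurrences in the CDSs of genes with any listed CDS site fell in that window. The interval of the sites lay above this value in every library, with the smallest gap at e12.5 (11.6% against 10.02%).

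The reading frame of the sites also differed between the libraries. In the frame that reads the middle bases as the leucine codon CTG lay 50.9% of the sites at e12.5 (48.7 to 53.0) and 58.1% in Adult (55.7 to 60.4), beside 53.8% and 54.2% of all TGCTGC in these CDSs. The frame with the alanine codon GCT held 40.6% at e12.5 (38.6 to 42.7) and 32.7% in Adult (30.5 to 35.0), beside 36.4% and 35.9%. The shares at P7 were 56.3% and 33.8%. The e12.5 and Adult libraries thus lay on opposite sides of these shares in both frames. The shares are those of genes with any listed CDS site in the same library.

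**Figure D5:**
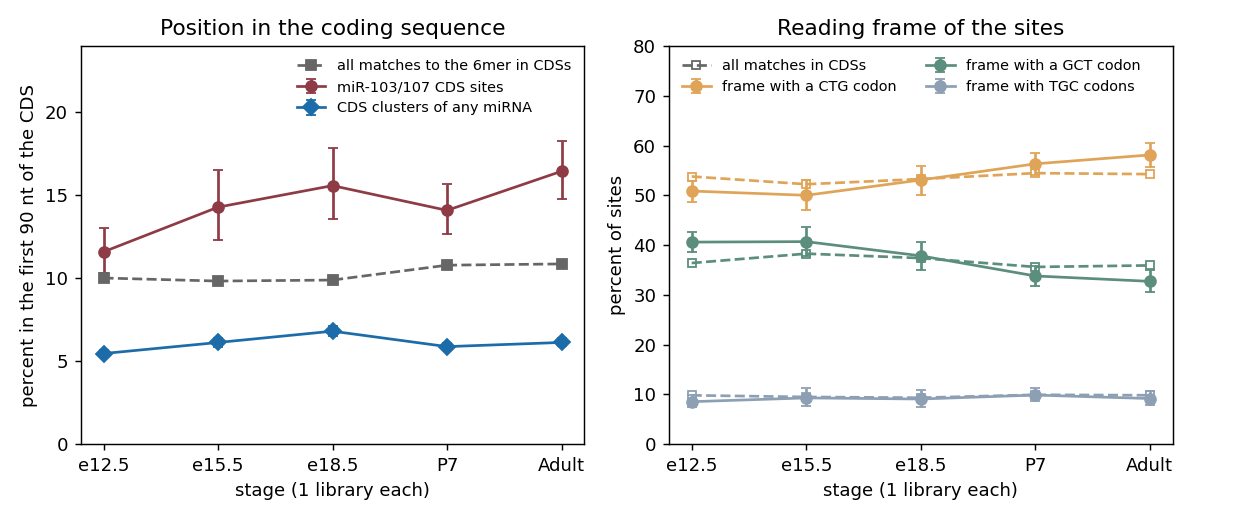
Left, percent of miR-103/miR-107 CDS sites in the first 90 nt of the CDS in each library, beside all matches to the 6mer in CDSs and CDS clusters of any miRNA. Right, percent of the CDS sites in each reading frame with all matches as dashed lines. Bars are 95% Wilson intervals, and the sites run from 11.6% to 16.4% on the left.

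Lipid synthesis genes carried coding sites. Of 23 such genes, all with a listed CDS site of some miRNA, 16 (69.6%) had a miR-103/miR-107 site in the CDS and 11 (47.8%) had one of at least 7 bases, beside 26.9% and 11.8% of 13595 genes with any listed CDS site. The genes of this list also had more clusters of any miRNA, with a median of 34 CDS clusters summed over the libraries against 9 over all genes, and the part of this in the count was not tested. By stage, a CDS site of at least 7 bases was listed in 2 of 19, 1 of 22, 2 of 22, 7 of 21 and 9 of 23 of these genes. Over all genes the shares were 7.28%, 4.54%, 4.73%, 6.80% and 5.84%. In 3′UTRs, 7 of the 23 genes (30.4%) had a site and 2 (8.70%) had one of at least 7 bases, beside 16.4% and 6.47% of all genes.

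Fasn, fatty acid synthase, had 3 such coding sites. Its 8mer had 73, 19, 18, 35 and 203 reads from e12.5 to Adult and was highest in Adult. A 7mer-A1 had 1253, 87, 364, no and 138 reads, which per 1000000 cluster reads were alike at e12.5 (27.9) and e18.5 (27.98), and the other was listed at e18.5 (17), P7 (5) and Adult (110.0). Scd1, the stearoyl-CoA desaturase of liver, had 1583 reads at a coding 7mer-A1 in Adult, a position not listed in the other libraries. Acly, which makes cytosolic acetyl-CoA, had 109 at P7 and 131 in Adult, and Gpam, which starts triglyceride synthesis, 5 and 155. Insig1, which retains the sterol sensor in the endoplasmic reticulum, had 0.461 reads per 1000000 cluster reads at e18.5 and 4.30 in Adult. On that scale Gpam had 0.303 at P7 and 6.23 in Adult. Acacb, an acetyl-CoA carboxylase, had 2.21 on that scale, or 55 reads, in Adult alone. Srebf1, the transcription factor of lipogenesis, had 39 reads at e12.5, 13 at P7 and 30 in Adult. Further members with such a site were Lpin1 (33 in Adult), Insig2 (7 at P7) and Scap (6 at P7), each listed in 1 library. Of the sites named here, that of Lpin1 overlapped a miR-15/16 site and the others did not.
Fasn 8mer: gggtgaccttcatggacacaATGCTGCAgg
Scd1 7mer-A1: ggaacatcattctcatggtccTGCTGCAct
The sites are shown as the longest match and the one with the most reads in a single library in this list, at chr11:120815411-120815417 and chr19:44406550-44406556, both on the minus strand.

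In 3′UTRs, Scd2, another desaturase, had 21 reads at e15.5 and 733 at e18.5, and was not listed there in Adult.

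Genes of the small RNA machinery had 3′UTR sites in 7 of 12 members with any listed 3′UTR site (58.3%), and 5 (41.7%) had at least 7 bases, beside 16.4% and 6.47% of 11065 genes. Their median of 33.5 3′UTR clusters summed over the libraries stood against 5 over all genes. The 8mer of Dicer1 (chr12:104690170-104690176, minus strand) had 51 reads in the e12.5 library and 19 in that of e15.5, and a 7mer-A1 of the same 3′UTR had 127 at e12.5. Ago1 carried a fully conserved 8mer (chr4:126438741-126438747, minus strand) with 61 reads at e15.5. Ago2 had a 7mer-A1 with 61 at e12.5 and a 7mer-m8 with 46 at e15.5, and Tarbp2, the partner of Dicer, had 12 and 23 at these stages. Tnrc6b, which links Ago to deadenylation, had 11 at e12.5 and 30 in Adult, and was the only one of the 5 genes with such a 3′UTR site after birth. The CDS held sites of at least 7 bases in 3 of 13 genes (23.1%, beside 11.8% of all genes, with a median of 24 CDS clusters against 9): Xpo5, the exporter of precursor miRNAs (28 at e12.5), Tarbp2, whose site listed under 3′UTR is also listed as coding, and Tnrc6b (219, 50 and 12 at e12.5, e15.5 and P7). The sites of Xpo5 and Tnrc6b and the 7mer-m8 of Ago2 overlapped a miR-15/16 site, and those of Dicer1, Ago1 and Tarbp2 did not.
Dicer1 8mer: tgaggctgatgcttcatgtaATGCTGCAct
Ago1 8mer: agtgccttcccgcaacggtaATGCTGCAga
Both are shown because they are the full matches in this list.

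Genes reported as targets of the family in earlier work had 3′UTR sites in 7 of 15 members (46.7%) and sites of at least 7 bases in 6 (40.0%), beside 16.4% and 6.47% of all genes. Their median number of 3′UTR clusters was 13 against 5. Besides Dicer1 these were Cdk6, a kinase of cell cycle entry (37 reads in Adult), Bace1 (9 at P7), Axin2, a brake on Wnt signalling (25 at e15.5), Notch2 (8 at e18.5 and an 8mer with 11 at P7) and Fbxw7, a ubiquitin ligase subunit (34, 17 and 7 in the embryonic libraries). All were listed in 1 to 3 libraries. In CDSs, 3 of 14 genes (21.4%) had a site of at least 7 bases, beside 11.8% of all genes and with a median of 14 CDS clusters against 9. Among them, Notch2 was listed in all 5 libraries, with 373, 136, 650, 570 and 73 reads at a site that overlaps a miR-15/16 match. Dapk1 had 25 at P7. The sites of Axin2, Fbxw7 and Dapk1 and the 3′UTR 7mer of Notch2 also overlapped one. Cav1, the target known from insulin resistance, had no site of at least 7 bases in either region.

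Insulin signalling genes had 3′UTR sites in 7 of 27 members (25.9%) and sites of at least 7 bases in 3 (11.1%), beside 16.4% and 6.47% of all genes and with a median of 13 clusters against 5. These were Foxo3, a transcription factor restrained by insulin, Pik3r1, the regulatory subunit of PI3 kinase, and Pdpk1, the kinase that activates Akt. Pik3r1 and Pdpk1 were listed at e12.5 alone, with 2.38 and 0.825 reads per 1000000 cluster reads. For Pdpk1 this was 37 reads. Foxo3 had 148, none, 29, 22 and 38 reads at one 7mer-A1 and 132, 18 and 15 at e12.5, P7 and Adult at another, with e12.5 highest at each. In CDSs, 5 of 30 genes (16.7%, beside 11.8% of all genes, with a median of 21 CDS clusters against 9) had such a site. They were Foxo3 (24 at e12.5), Pdpk1 (the same position, also annotated as 3′UTR), Mtor (12 in Adult), Cbl and Flot1. Cbl, a ubiquitin ligase, had 23 at e12.5, and Flot1, a protein of lipid rafts, had 17, 102 and 18 at e12.5, e18.5 and Adult. The sites of Pik3r1, Pdpk1 and Flot1 and the coding site of Foxo3 overlapped a miR-15/16 site.

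Cell cycle entry genes had 3′UTR sites in 6 of 14 members (42.9%) and of at least 7 bases in 3 (21.4%), beside 16.4% and 6.47% of all genes and with a median of 23 3′UTR clusters against 5. The sites of at least 7 bases were in Cdk6, Ccnd1, which encodes cyclin D1 (10 reads at e12.5), and Cdc25a, a phosphatase that activates Cdk2 (35 at e12.5). CDS sites of this length were listed in 2 of 15 genes (13.3%, beside 11.8% of all genes, with a median of 23 CDS clusters against 9). These were Cdkn1a, the inhibitor p21 (30 in Adult), and Wee1, a kinase that restrains mitosis (8 at e15.5). Those of Ccnd1 and Wee1 overlapped a miR-15/16 site. The host genes of the family and the other genes of coenzyme A synthesis had no 3′UTR site of at least 7 bases among 6 members with any listed 3′UTR site, beside 6.47% of all genes. 1 of 6 with any listed CDS site had one in its CDS (16.7%, beside 11.8% of all genes, with a median of 17 CDS clusters against 9). This was Coasy, which catalyses the last steps of the pathway (30 reads in Adult), and its site overlapped a miR-15/16 site.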

How the data were processed

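Sites are seed matches that the authors found in clusters of Ago HITS-CLIP reads. The clusters come from reads cleaned with the FASTX-Toolkit and placed by Bowtie on mm10, and miRNA reads were placed on precursors of miRBase v19. Versions of the FASTX-Toolkit and Bowtie are not given in the sources used here. The deposited read number of a cluster is a signal, its highest number of reads, unscaled. The deposited conservation is a fraction from 0 to 1 and the deposited duplex energy a score, both by methods not given in the sources used here. The number that the deposited tables attach to a miRNA was taken as a read count. The submitters' processing notes name mm9 and mm10. All sites carried TGCTGC in GRCm38 (RefSeq), which is mm10.

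Entries at 1 position were counted once, overlapping clusters of the lists of an embryonic table were counted once, and their reads were summed. Summed cluster reads were 13008703 to 44867326 per library, and miRNA reads 7781484 to 25546696. Shares have 95% Wilson intervals for counting error only. Seed families with at least 50 clusters in both libraries were compared between e12.5 and Adult with a two-sided Fisher's exact test (scipy 1.17.1), after a test on simulated counts, at an adjusted p of 0.05. A pseudocount of 0.5 was used for odds ratios. CDS positions are those of the longest coding transcript in GENCODE M21.

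The text names the 15 3′UTR genes and 8 CDS genes with a site of at least 7 bases in all libraries and the highest median of scaled reads, the 5 leading genes listed only before or only after birth, genes of 6 fixed lists with a site of at least 7 bases, and 5 miRNAs of like course. Sdcbp, Dot1l, Znrf2 and the further site of Btg2 were named after their values were seen. Values of 3 genes that this rule names are not reported here, though the counts include them. The miRNAs and lists were chosen with earlier results of these data known.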

Additional observations from a re-analysis of the deposited data

How the results depend on the processing

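The log2 odds ratio of Adult over e12.5 kept its direction and its call in 3′UTRs and CDSs with either e12.5 list alone, with clusters of at least 10 reads, without sites that overlap a miR-15/16 site and with no minimum number of clusters. Genes in place of clusters reversed it to −0.44 in 3′UTRs and −0.12 in CDSs (adjusted p = 0.0407 by Fisher's exact test), and the cause was not tested. With at least 7 matched bases it was 0.20 and 0.036, and neither passed. In CDSs it also lost the call with 8mers alone (0.33) and with clusters listed under CDS alone (0.11), while 3′UTR 8mers were too few to be tested. Summing gene copies gave miR-103-3p 1406 RPM at e12.5 and 743 in Adult, and miR-107-3p 63.9 and 198. With the higher copy and without miR-142a-3p and miR-144-3p, miR-103-3p had 1684 and 580.2 and miR-107-3p 151 and 307. The first e12.5 list gave 736 and 51.0, and the second gave 74.6 for miR-107-3p. The first list held 68.4% 6mers at e12.5. With at least 7 bases, the genes with a 3′UTR site numbered 716 in any and 19 in all libraries, and those with a CDS site 1600 and 46. With sites of any length but none that overlap a miR-15/16 site, the counts were 956 and 16 in 3′UTRs and 2179 and 44 in CDSs, against 1813, 62, 3660 and 184 with all sites. The other alternatives left all values within their interval or within 1.5 times. Sites under 5 reads are not listed, and depth alone does not order the number of sites, since P7 with 16499162 summed cluster reads listed more than Adult with 24885228. No paired analysis was possible because the labels carry no replicate numbers and each stage has 1 library.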

Other observations

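The passenger arm miR-107-5p did not follow the course of miR-107-3p. It had 316, 215, 116, 320 and 401 reads from e12.5 to Adult, or 12.4, 21.3, 14.9, 26.6 and 17.5 RPM. Of the miR-103 passenger arms, miR-103-2-5p had 299, 252, 17, 22 and 56 reads, and 298 of the 299 at e12.5 and all 252 at e15.5 came from the second list of the table.

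Clusters at the miRNA genes, from the same libraries, had 27.8 reads per 1000000 cluster reads at Mir107 at e12.5 and 195 in Adult. The clusters at Mir103-1 and Mir103-2 cannot be told apart, since the genes encode one mature sequence.

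Predicted duplex energies were equal for the sisters at 62.4% to 69.0% of the sites listed for both, within 0.05. Where they differed, miR-107-3p had the more negative value more often in every library, at 1136 against 790 sites at e12.5 and at 641 against 437 in Adult.

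One gene with a CDS site of at least 7 bases in all libraries is written as 6-Mar in the tables, with 96, 263, 61, 5 and 61 reads. The symbol has the form of a date, and the gene was not named here.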
